A study of Mus musculus with 8 samples.

Results

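STAT proteins (signal transducers and activators of transcription) carry cytokine signals from the cell surface to the nucleus. A cytokine brings its receptor chains together, the JAK kinases bound to these chains are activated, and the STATs that dock on the receptor are phosphorylated, pair up and bind DNA at target genes. Stat2 works in the type I interferon pathway, where it forms the complex ISGF3 with Irf9 and binds the interferon-stimulated response element (ISRE), whereas the other STATs mostly bind as dimers to palindromic GAS sites. In bone, gp130 cytokines acting through Stat3 favor osteoblasts, growth hormone acts through Stat5, and type I interferon restrains both osteoblasts and osteoclasts.

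The genes described here are Stat2, Stat3, Stat4, Stat5a, Stat5b and Stat6. These genes were chosen by family membership, from the gene symbols, and not by their measured values, although earlier results of these data were known. They are 6 of the 24421 genes in the deposited tables. Of these, 5 were among the 12348 genes with enough reads to be tested, and Stat4 was not.

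Osteoblastic cells were isolated by enzymatic digestion from the calvaria of newborn C57BL/6 mice that were WT or Def6-/-. RNA was taken at day 0, before differentiation, or after 12 days in osteogenic medium with ascorbic acid and β-glycerophosphate. The 4 groups (WT day 0, WT day 12, Def6-/- day 0 and Def6-/- day 12) held 2 libraries each, described by the study as biological replicates. The mice lacked Def6 in every tissue, so that all cell types in the Def6-/- cultures carried the deletion. The study removed CD45-positive blood cells in some of its experiments, and such a step is not described for the cultures sequenced here.

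Each library held between 2414856 and 3482837 reads on genes. Def6 had 112 to 186 reads in the WT libraries and 0 to 2 reads in the Def6-/- libraries, which matches the labels. Osteoblast markers were present in every library (10 of 10 markers passed the filter), although Bglap was at 0 reads in all day 0 libraries. Replicate 1 of WT day 0 stood apart, with 34.9% of its reads mapped to more than 1 place compared with 21.4% to 26.6% in the other libraries. The STAT genes, and the named genes whose call it decides or whose change it moves by over 1.5 times, are therefore also given without it. Macrophage markers (15 genes, all past the filter) summed to 217 to 456 normalized CPM at day 0 and to 3505 to 6886 at day 12. Adipocyte markers (5 genes) summed to 32.0 to 39.9 at day 0 and 296 to 418 at day 12. Adipoq and Cfd were at 0 reads in all day 0 libraries, and Plin1 was at 0 in those of Def6-/-, so the day 0 sums came from the remaining markers. Of the 11 T and NK cell markers, 6, Cd3e among them, had 0 reads in all libraries. In bulk RNA of this kind, fewer cells of a type and less RNA per cell cannot be told apart.

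Stat2 was the STAT gene whose change with differentiation passed the test. Stat2 lies on chromosome 10 (GRCm38, chr10:128270559-128292849, plus strand). Its levels are given as normalized CPM, the deposited CPM rescaled to reads on genes with TMM factors. The 2 WT libraries held 18.2 and 32.5 normalized CPM of Stat2 at day 0, and 92.4 and 108 at day 12. The 2 Def6-/- libraries held 22.2 and 35.4 at day 0, and 75.1 and 55.9 at day 12. Every day 12 library was thus above every day 0 library in both genotypes, and at day 12 both WT libraries were above both Def6-/- libraries. At day 0 the genotypes overlapped.

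The mean of Stat2 rose 3.95-fold in WT cells, from 25.3 ± 10.2 to 100.0 ± 10.8 (SD, n = 2; limma, log2 fold change 1.99, 95% interval 1.25 to 2.73, Benjamini-Hochberg adjusted p = 0.00366). In Def6-/- cells it rose 2.27-fold, from 28.8 ± 9.35 to 65.5 ± 13.6 (log2 fold change 1.18, interval 0.44 to 1.92, limma adjusted p = 0.0386). The rise in WT cells passed the test under each of the 8 alternative analyses and without any 1 library (log2 fold changes 1.59 to 2.39; 1.59 without replicate 1 of WT day 0). The rise in Def6-/- cells lost its call when any 1 of the 4 Def6-/- libraries or either WT day 12 library was left out (log2 fold changes 0.85 to 1.504), with the deposited CPM (limma adjusted p = 0.0732) and without the filter on low values (limma adjusted p = 0.0684). The summed macrophage markers were also higher at day 12, as given above, and their part in the rise of Stat2 was not tested.

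At day 12 the WT mean of Stat2 was 1.53 times the Def6-/- mean. This difference did not pass the test in the fit of all 8 libraries (limma, log2 fold change −0.61, interval −1.35 to 0.13, adjusted p = 1), neither by the adjusted p nor by the study's rule for genotypes, an unadjusted p under 0.05 and a change over 1.2-fold. That fit shares 1 estimate of the spread across the 4 groups, whose replicates did not spread alike. The mean chi-square per gene between the 2 libraries was 31.9 in WT day 0, 11.8 in WT day 12, 4.70 in Def6-/- day 0 and 4.28 in Def6-/- day 12. The part of this in the test of Stat2 was not tested. A fit of the 4 day 12 libraries alone gave the same genotype difference (log2 fold change −0.61), which there passed the unadjusted rule (limma adjusted p = 0.709). It also passed the unadjusted rule without replicate 1 or without replicate 2 of WT day 0, and not by edgeR or DESeq2 on recovered reads. The test of whether the rise differed between genotypes gave −0.81 on the log2 scale (interval −1.86 to 0.23, limma adjusted p = 1), so a smaller rise in Def6-/- cells was not shown. Without replicate 1 of WT day 0, the library that stood apart, this difference was −0.41. Without replicate 2 of that group it was −1.22, but there replicate 1 was the only WT day 0 library. The adipocyte markers, at 296 and 311 normalized CPM in the WT and 411 and 418 in the Def6-/- libraries at day 12, also separated the genotypes, and their part in the difference was not tested.

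**Figure D1:**
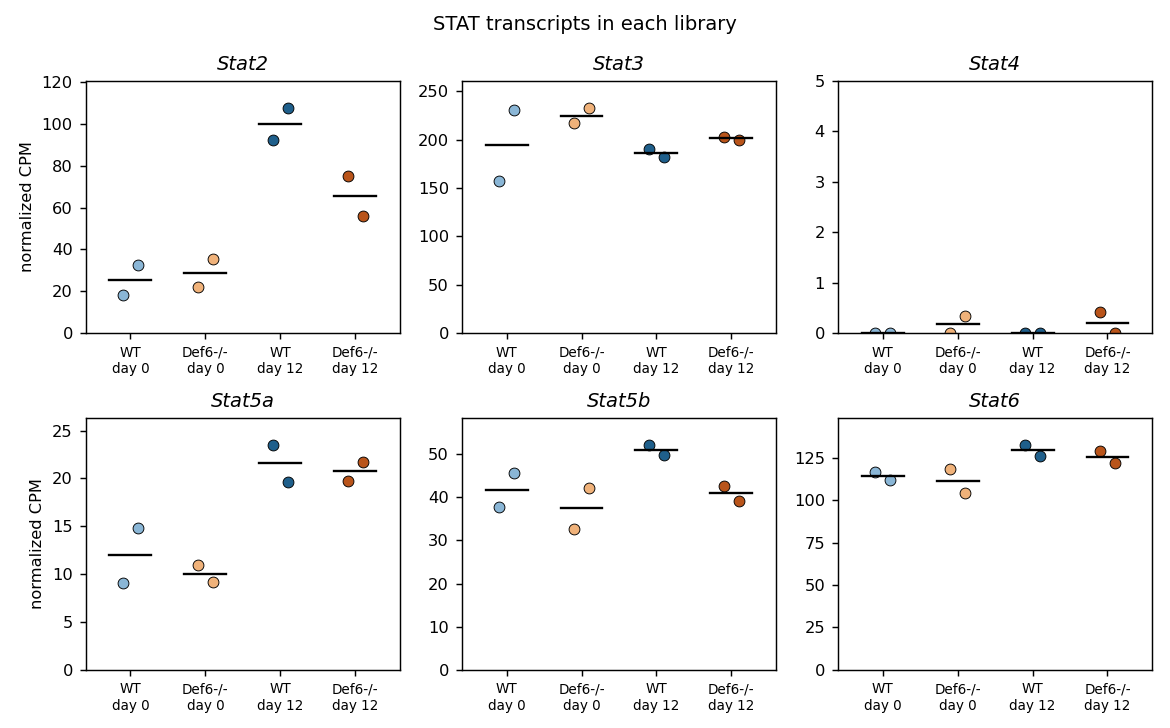
Normalized CPM of the 6 STAT genes in each of the 8 libraries (points, 2 per group), with the group mean as a line, for WT and Def6-/- cells at day 0 and day 12. The vertical axes are linear, start at 0 and differ between panels. Stat2 runs from 18.2 to 35.4 at day 0 and from 55.9 to 108 at day 12, while Stat6 runs from 104 to 119 at day 0 and from 122 to 133 at day 12.

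The DNA just upstream of Stat2 holds a match to the motif that ISGF3 reads. In the promoter sequences of RefSeq (GRCm38.p6; 250 bases before to 50 after each start site), the ISRE was searched on both strands as GAAA, any 2 bases and GAAA again, and the GAS motif as TTC and GAA with a spacer of 3 or 4 bases (TTCNNNGAA with 3). The 2 kinds of match did not overlap. The stretch of Stat2 is shown because it holds both an ISRE match, from 222 to 213 bases before the RefSeq start, and a GAS match with a spacer of 4 bases, from 210 to 201 bases before it. The RefSeq start lies upstream of the gene start given above, which is from GENCODE. Stretches of Ifit3 and Ifit1, long known as ISGF3 targets, are shown for comparison. They were chosen because their ISRE match has the same letters as that of Stat2 on the strand of the gene. The promoters of Bst2 and Oas1a hold the same letters on the opposite strand. ISRE matches with other letters occur in the promoters of Ifit3, Ifit1, Bst2, Oas1a, Isg15, Oas3 and Rsad2. Capitals mark the motif matches, and all are written 5′ to 3′ on the strand of the gene.
Stat2 (chr10:128270251-128270322, plus strand): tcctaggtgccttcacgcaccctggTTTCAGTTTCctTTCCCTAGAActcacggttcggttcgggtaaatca
Ifit3 (chr19:34583397-34583426, plus strand): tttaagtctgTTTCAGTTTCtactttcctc
Ifit1 (chr19:34640794-34640823, plus strand): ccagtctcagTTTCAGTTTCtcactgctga

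Of all 32851 RefSeq promoters, 3.44% held the ISRE motif, compared with 10 of the 16 ISGF3 target genes that had a promoter sequence. Among the 9 promoter windows of the 6 STAT genes, an ISRE match occurred in that of Stat2 and in 1 of Stat4. The GAS motif with a spacer of 4 was found in Stat2 (6.95% of all promoters hold it) and that with a spacer of 3 in none of the 9 windows (8.30% of all promoters). These matches describe the letters only, as binding was not measured here.

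Irf9, the DNA-binding partner of Stat2 in ISGF3, had a similar profile. The WT libraries held 17.0 and 26.5 normalized CPM of Irf9 at day 0 and 67.1 and 70.8 at day 12. The Def6-/- libraries held 18.1 and 26.6 at day 0 and 47.6 and 39.7 at day 12. As with Stat2, the days did not overlap in either genotype, and the day 12 libraries of WT were above those of Def6-/-.

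Irf9 rose in WT cells (log2 fold change 1.65, interval 1.02 to 2.29, limma adjusted p = 0.00422; the call was lost without replicate 1 of WT day 12) and in Def6-/- cells (0.96, interval 0.32 to 1.59, limma adjusted p = 0.0475). At day 12 it was lower in Def6-/- cells by the unadjusted rule (log2 fold change −0.65, interval −1.28 to −0.02), but not after adjustment (limma adjusted p = 1). That call was kept in 6 of 8 alternatives and was lost when any 1 of the 4 day 12 libraries was left out (log2 fold changes −0.78 to −0.52). The call in Def6-/- cells over time was kept in 3 of 8 alternatives and, with a library left out, only without replicate 1 or replicate 2 of WT day 0. The difference in rise between the genotypes was −0.70 (interval −1.59 to 0.20), which did not pass the unadjusted rule. Without replicate 2 of WT day 0 it was −1.004, but there replicate 1 was the only WT day 0 library. Without replicate 1 of WT day 0 the change in WT cells was 1.35, the difference at day 12 −0.65 and the difference in rise −0.39.

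Among 9588 genes with a mean of at least 10 normalized CPM, the profiles most like that of Stat2 over the 8 libraries were those of Acad11 (Pearson's r = 0.995), Irf9 (r = 0.994) and Lgals3bp (r = 0.985). These coefficients describe 8 points that share the 4 groups and the scaling of each library, and the difference between days makes up much of them.

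**Figure D2:**
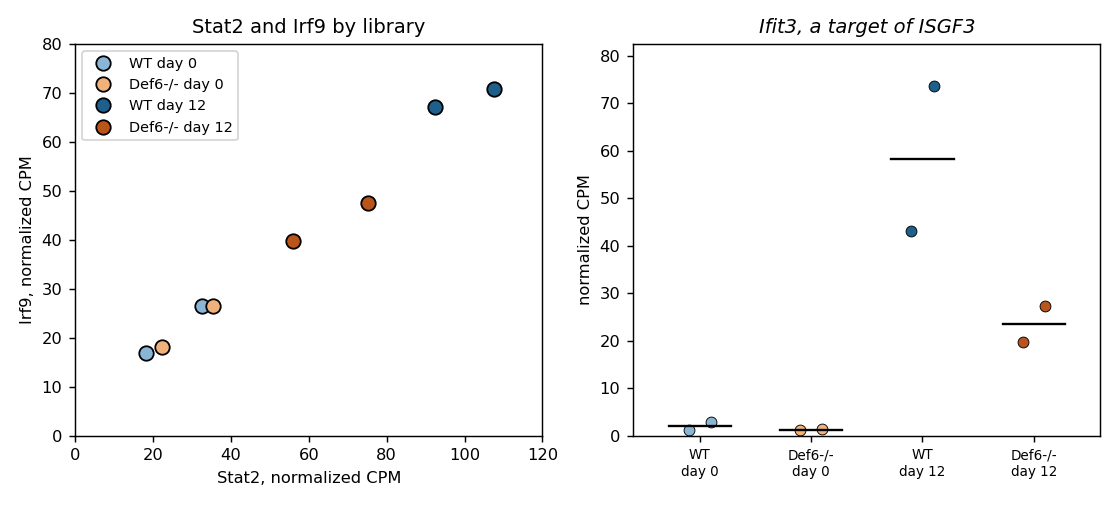
Left, normalized CPM of Stat2 (horizontal) and Irf9 (vertical) in each of the 8 libraries, colored by group. The 4 day 0 libraries lie at the lower left, the 2 Def6-/- day 12 libraries in the middle and the 2 WT day 12 libraries at the upper right. Right, normalized CPM of Ifit3 by library, with the group mean as a line; the 4 day 0 libraries are at 2.83 or below and the WT day 12 libraries at 43.0 and 73.7.

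Stat3, the transducer of IL-6, LIF, oncostatin M and other gp130 cytokines, did not pass any of the comparisons. Stat3 lies on chromosome 11 (chr11:100885098-100939540, minus strand). The WT libraries held 157 and 231 normalized CPM at day 0 and 191 and 182 at day 12. The Def6-/- libraries held 217 and 233 at day 0 and 203 and 199.8 at day 12. The widest gap within a group was in WT at day 0, where replicate 1 was the lowest of all 8 libraries. At day 12 the Def6-/- libraries lay above those of WT, but the difference was small against its error (log2 fold change 0.11, interval −0.35 to 0.57). The log2 fold change over time was −0.03 in WT cells (interval −0.49 to 0.43; −0.31 without replicate 1 of WT day 0) and −0.16 in Def6-/- cells (interval −0.62 to 0.30). At day 0 the genotypes differed by 0.24 (interval −0.22 to 0.70), which turned to −0.04 without replicate 1 of WT day 0. Without replicate 2 of that group the difference was 0.51, but there replicate 1 was the only WT day 0 library.

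The genes Stat5a and Stat5b, the transducers of growth hormone, prolactin and IL-2 family cytokines, lie next to Stat3 on chromosome 11. Stat5a (chr11:100859351-100885169, plus strand) overlaps the end of Stat3 on the opposite strand by 72 exonic bases, and 8626 bases separate it from Stat5b (chr11:100780731-100850724, minus strand). The spliced transcripts of Stat5a and Stat5b share 608 stretches of 50 bases, which are 8.21% of those of Stat5a and 11.0% of those of Stat5b, so that some reads could be assigned to either gene or to neither.

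Stat5a was the STAT gene with the second largest change over time. The WT libraries held 9.08 and 14.8 normalized CPM at day 0 and 23.5 and 19.7 at day 12. The Def6-/- libraries held 10.9 and 9.20 at day 0 and 19.7 and 21.8 at day 12. In both genotypes every day 12 library was above every day 0 library, and the genotypes overlapped on both days. The mean at day 12 was 1.81 times that at day 0 in WT cells (log2 fold change 0.83, interval 0.18 to 1.49) and 2.06 times in Def6-/- cells (0.98, interval 0.32 to 1.64). Neither passed after adjustment (limma adjusted p = 0.0812 and 0.0504). In Def6-/- cells it passed without replicate 1 or replicate 2 of WT day 0 and in a fit of the Def6-/- libraries alone; in WT cells it passed without replicate 2 of WT day 0 (1.16) and not without replicate 1 (0.51). The genotypes differed by −0.05 at day 12 (interval −0.71 to 0.61).

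Stat5b was steadier. The WT libraries held 37.9 and 45.6 normalized CPM at day 0 and 52.2 and 49.8 at day 12. The Def6-/- libraries held 32.7 and 42.2 at day 0 and 42.7 and 39.3 at day 12. At day 12 the WT libraries lay above those of Def6-/-, but the difference did not pass the unadjusted rule (log2 fold change −0.31, interval −0.79 to 0.17). Its log2 fold change over time was 0.29 in WT cells (interval −0.19 to 0.77) and 0.14 in Def6-/- cells (interval −0.35 to 0.62). Without replicate 1 of WT day 0 the change in WT cells was 0.16 and the genotypes differed by −0.29 at day 0.

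Stat6, the transducer of IL-4 and IL-13, spanned only 104 to 133 normalized CPM over the 8 libraries. Stat6 lies on chromosome 10 (chr10:127642986-127660957, plus strand), 609.6 kb from Stat2. The WT libraries held 117 and 112 normalized CPM at day 0 and 133 and 126 at day 12. The Def6-/- libraries held 119 and 104 at day 0 and 129 and 122 at day 12. The day 12 libraries were above the day 0 libraries in both genotypes, by 0.18 on the log2 scale in WT cells (interval −0.20 to 0.55) and 0.17 in Def6-/- cells (interval −0.20 to 0.55), and neither passed the test. The genotypes differed by −0.05 at day 12 (interval −0.42 to 0.33) and by −0.04 at day 0 (interval −0.41 to 0.33). Without replicate 1 of WT day 0 these values were 0.21 over time in WT cells and −0.01 between genotypes at day 0.

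Stat4, which transduces IL-12 in T and NK cells, was close to absent. It lies on chromosome 1 (chr1:51987148-52107189, plus strand). Replicate 2 of Def6-/- day 0 and replicate 1 of Def6-/- day 12 held 1 read each, and the other libraries held 0. At these depths 0 reads allow up to 0.861 to 1.28 normalized CPM (3 reads, counting error only), so that a difference between groups was not detectable. Stat4 also shares 1033 of its 3148 exonic bases with Gm28177 on the same strand, so that some reads there could be assigned to neither gene.

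Only 1 of the 5 tested STAT genes, Stat2, passed an adjusted p of 0.05 over time in WT cells, beside 18.3% of all genes tested (limma). The count was also 1 of 5, again Stat2, in Def6-/- cells, beside 16.8% of all genes. An unadjusted limma p under 0.05 was reached by 2 of the 5, Stat2 and Stat5a, in each genotype (32.6% of all genes in WT and 30.1% in Def6-/- cells). The libraries of the 2 days did not overlap for 4 STAT genes in WT cells, all higher at day 12 (29.3% of all genes were apart and higher, 26.7% apart and lower). In Def6-/- cells they did not overlap for 3 higher and 1 lower (67.6% of all genes were apart, 35.2% higher and 32.5% lower). Between genotypes, 0 of the 5 passed the study's rule at day 12 (1.4% of all genes did), at day 0 (2.3%) or in the test of a different change over time (1.13%). By adjusted limma p the count was also 0, beside 0.0081% of all genes on each day, which is Def6 itself. No STAT gene reached an unadjusted p under 0.05 in these 3 comparisons, and edgeR and DESeq2 on recovered reads also called 0. At day 12 the libraries of the genotypes were apart for 2 STAT genes that were lower in Def6-/- cells (15.9% of all genes) and 1 that was higher (16.8%), and at day 0 for 0 (22.6%).

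**Figure D3:**
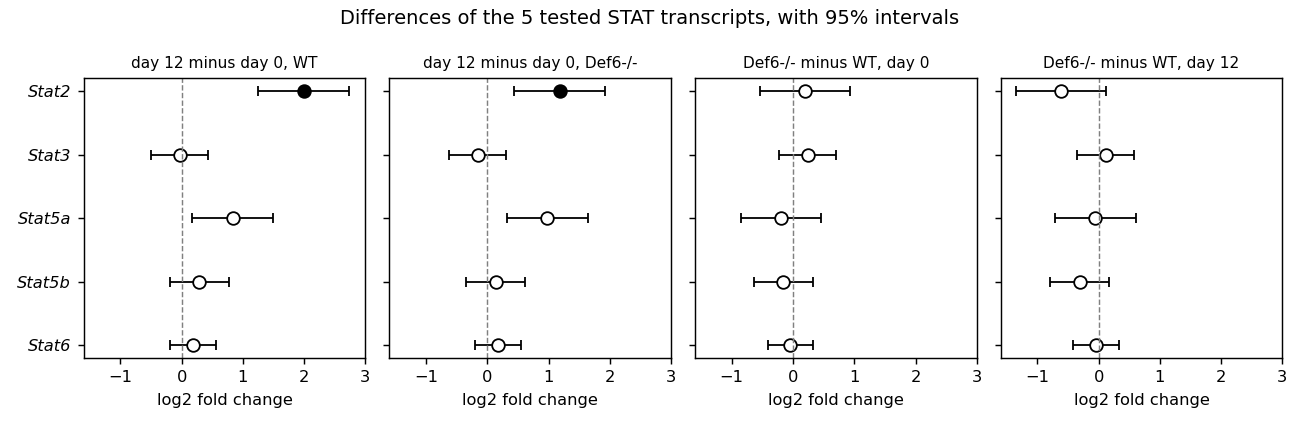
Log2 fold changes of the 5 tested STAT genes (points) with 95% intervals (bars) from the limma fit, over time in WT and Def6-/- cells and between genotypes on each day. Filled points passed the rule for that comparison (adjusted p under 0.05 over time; unadjusted p under 0.05 and over 1.2-fold between genotypes). Stat2 is the only filled point, at 1.99 in WT and 1.18 in Def6-/- cells.

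Levels of different genes can be compared after division by exon length, as normalized CPM per kb. On this scale Stat3 and Stat6 were the main STAT transcripts throughout. In WT cells at day 0, Stat3 held 31.2 ± 8.41 per kb and Stat6 30.3 ± 0.894 (SD, n = 2), and their libraries overlapped. Stat5b with 7.54 ± 0.984 and Stat2 with 5.76 ± 2.31 followed, with overlapping libraries, and Stat5a was lowest with 3.01 ± 1.03. At day 12 Stat6 (34.3 ± 1.201) and Stat3 (29.9 ± 1.03) still led in WT cells, but Stat2 had moved past Stat5b, to 22.7 ± 2.45 compared with 9.21 ± 0.306. In Def6-/- cells Stat2 passed Stat5b as well, with 6.55 ± 2.13 per kb at day 0 and 14.9 ± 3.09 at day 12. Stat2 stood at the 40.2 percentile of all tested genes with a known exon length in WT cells at day 0 and at the 77.0 percentile at day 12, and went from the 44.0 to the 66.3 percentile in Def6-/- cells.

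The make-up of the STAT transcripts thus shifted. Stat2 made up 5.95% and 8.58% of the summed per-kb level of the 5 tested genes in the WT libraries at day 0, and 20.6% and 24.2% at day 12. In the Def6-/- libraries it made up 6.31% and 9.71% at day 0, and 17.7% and 14.2% at day 12. The share of Stat3 went the other way, from 39.7% ± 4.77 to 29.4% ± 0.791 in WT cells and from 44.3% ± 1.012 to 34.8% ± 1.42 in Def6-/- cells (SD, n = 2). Shares of 1 sum cannot move independently, and Stat3 itself did not pass the test over time.

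**Figure D4:**
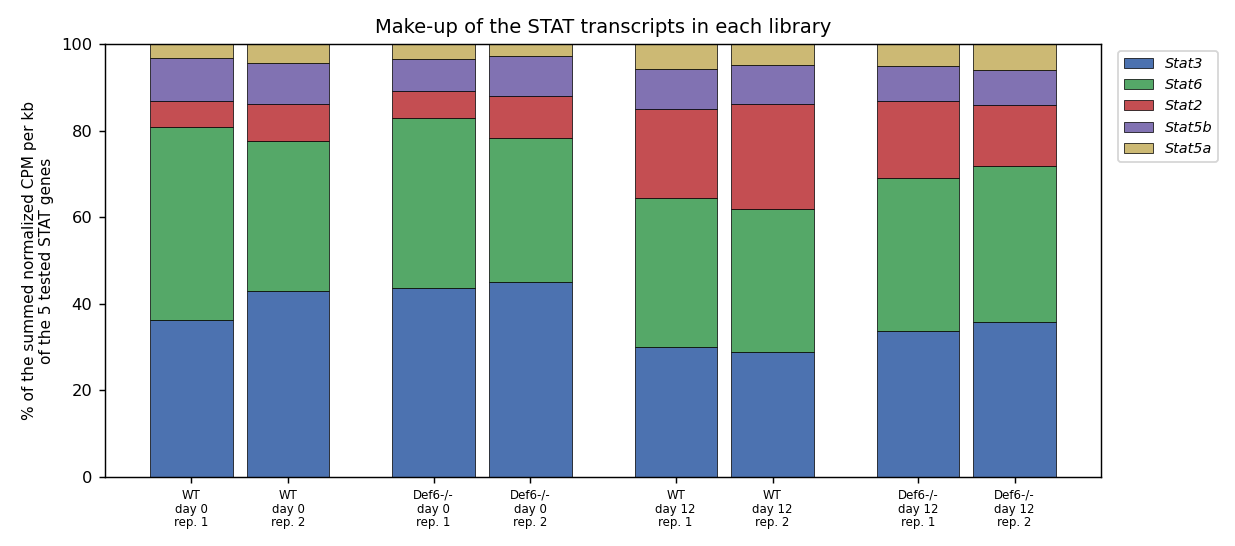
Share (%) of each of the 5 tested STAT genes in their summed normalized CPM per kb of exon, with 1 stacked bar per library. The Stat2 segment spans 5.95% to 9.71% in the day 0 libraries and 14.2% to 24.2% in the day 12 libraries.

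The genes around the STATs were then counted by role, from lists of 118 genes, of which 92 were tested. The JAK kinases, which phosphorylate the STATs, did not pass any comparison by the rules used here, and Jak3 over time in WT cells was the only one with an unadjusted limma p under 0.05 (adjusted p = 0.127). Jak1, a kinase of gp130 and interferon receptors, held 260 ± 2.18 normalized CPM in WT and 249.9 ± 3.94 in Def6-/- cells at day 12 (log2 fold change −0.06, interval −0.63 to 0.52). Jak2 held 53.5 ± 1.85 and 50.3 ± 8.97, Tyk2, the kinase of the interferon receptor, 34.1 ± 3.94 and 37.1 ± 4.28, and Jak3, the kinase of the common gamma chain, 15.3 ± 1.4996 and 12.7 ± 4.68. The coactivators Crebbp and Ep300 differed between genotypes at day 12 by −0.01 (interval −0.84 to 0.81) and 0.14 (interval −0.93 to 1.21). In this list of 7 genes, Irf9 alone was called, in both genotypes over time and at day 12 between genotypes.

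Among cytokine receptors, 22 of 30 were tested. Over time 7 were called higher and 1 lower in WT cells (12.7% and 5.64% of all genes), and 10 were called higher and 0 lower in Def6-/- cells (12% and 4.79%). Il11ra1, the receptor of the gp130 cytokine IL-11, rose from 41.9 ± 12.8 to 153 ± 22.9 normalized CPM in WT cells and from 30.5 ± 2.16 to 145 ± 21.8 in Def6-/- cells (limma adjusted p = 0.00127 and 0.000601). Il10ra, the IL-10 receptor chain of leukocytes, rose from 1.10 ± 0.442 to 18.9 ± 8.97 and from 1.47 ± 1.11 to 13.6 ± 2.29. Csf2ra, the GM-CSF receptor chain of myeloid cells, rose from 12.3 ± 0.625 to 53.3 ± 18.0 in WT cells and from 14.5 ± 4.54 to 47.4 ± 4.86 in Def6-/- cells. The leptin receptor Lepr fell in WT cells, from 26.8 ± 1.08 to 12.7 ± 1.45 (limma adjusted p = 0.042), a call that was kept in 4 of 8 alternatives and lost without any 1 of the WT day 12 or Def6-/- day 0 libraries. The summed macrophage markers were also higher at day 12, and their part in these rises was not tested.

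Between genotypes 1 of the 22 receptors was called on each day, beside 1.4% of all genes at day 12 and 2.3% at day 0. Csf2rb, the shared beta chain of the GM-CSF, IL-3 and IL-5 receptors, was higher in Def6-/- cells at day 12, with 12.6 ± 2.71 compared with 6.92 ± 0.865 in WT cells (log2 fold change 0.77, limma adjusted p = 1); the call was kept in 5 of 8 alternatives and lost without replicate 1 or 2 of WT day 12 or replicate 2 of Def6-/- day 12. Il21r was lower in Def6-/- cells at day 0, with 0 reads in both libraries compared with 2 and 5 in WT, where the adjusted limma p was 0.908 and the call was lost without either Def6-/- day 0 library or replicate 2 of WT day 0. The type I interferon receptor, which leads to Stat2, has Ifnar1 and Ifnar2 as its chains, both named here after their values were seen. At day 12 Ifnar1 held 104 ± 6.03 in WT and 106 ± 1.16 in Def6-/- cells (log2 fold change 0.03, interval −0.35 to 0.42), and Ifnar2 held 54.96 ± 13.2 and 56.4 ± 4.95 (0.06, interval −0.46 to 0.57).

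Of the inhibitors of the pathway, all 17 were tested, and 2 were called higher over time in WT cells and 3 in Def6-/- cells, a share near that of all genes (12.7% and 12%). Ptpn6, the phosphatase SHP-1 of blood cells, rose from 4.51 ± 0.879 to 28.7 ± 12.2 in WT and from 3.53 ± 1.27 to 25.8 ± 4.56 in Def6-/- cells (limma adjusted p = 0.00286 and 0.00188). Usp18, which is induced by interferon and blocks its receptor, rose from 2.77 ± 0.575 to 31.2 ± 13.3 and from 2.23 ± 2.62 to 12.1 ± 0.849 (limma adjusted p = 0.00681 and 0.0249); the call in Def6-/- cells was lost without replicate 1 of Def6-/- day 0 or either Def6-/- day 12 library (log2 fold changes 1.36 to 3.24 over all libraries left out), and that in WT cells without replicate 2 of WT day 12. Usp18 is also on the list of ISGF3 targets. Socs2, the feedback inhibitor of growth hormone signaling, rose in Def6-/- cells from 11.0 ± 1.75 to 27.4 ± 1.05 (limma adjusted p = 0.0348; the call was kept in 7 of 8 alternatives and, with a library left out, only without replicate 1 or 2 of WT day 0) and held 16.5 ± 8.41 and 28.8 ± 1.84 in WT cells (limma adjusted p = 0.117). Socs3, the feedback inhibitor of gp130 signaling, was named after its values were seen and held 28.1 ± 1.77 and 30.3 ± 2.21 on the 2 days in WT cells and 29.7 ± 4.74 and 31.0 ± 5.59 in Def6-/- cells. Between genotypes limma called 0 of the 17 on either day.

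Known targets of ISGF3 rose over the same days. Of 20 such genes 19 were tested, and all 19 were called higher at day 12 in WT cells (12.7% of all genes were), with a median log2 fold change of 2.61. In Def6-/- cells the log2 fold changes of all 19 were positive, from 0.68 to 3.46, and 10 of them were called (12% of all genes were called higher), with a median of 1.69. At day 12, 9 of the 19 were lower in Def6-/- than in WT cells by the unadjusted rule (0.591% of all genes) and 0 after adjustment (limma), with a median of −1.002; by the same unadjusted rule edgeR called 9 and DESeq2 8 on recovered reads. At day 0, 3 of the 19 were lower (1.31% of all genes), and the median was −0.37. The medians of all genes tested lay between −0.02 and 0.02 in all comparisons. Some of these genes are among those that the study picked from these libraries, so that the counts are not independent evidence of the direction.

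Ifit3, an interferon-induced antiviral protein, held 43.0 and 73.7 normalized CPM in the WT libraries at day 12 and 19.7 and 27.3 in the Def6-/- libraries, compared with 1.18 and 2.83 and with 1.13 and 1.36 at day 0. At day 12 it was thus lower in both Def6-/- libraries (log2 fold change −1.24, interval −2.12 to −0.36, limma adjusted p = 1). Irf7, the interferon-induced regulator of interferon genes, held 42.8 ± 19.5 in WT and 14.4 ± 1.67 in Def6-/- cells at day 12, and 7.20 ± 1.81 and 2.61 ± 2.09 at day 0 (log2 fold changes −1.43 and −1.30; limma adjusted p = 1 and 0.908). Oas3, a sensor of double-stranded RNA, held 6.39 ± 1.93 and 1.86 ± 1.43 at day 12 (log2 fold change −1.44). With 1 library left out, the day 12 differences ranged from −1.63 to −0.86 (Ifit3), −1.91 to −0.96 (Irf7) and −1.97 to −0.91 (Oas3). None of these day 12 calls was kept with every library left out in turn. The call of Oas3 was also kept in only 6 of 8 alternatives. Isg15, a ubiquitin-like modifier, was lower in Def6-/- cells at day 0, with 3.12 ± 2.82 compared with 11.7 ± 8.03 (limma adjusted p = 0.908; log2 fold change −1.65, and −0.96 and no longer called without replicate 1 of WT day 0), and the membrane protein Bst2 likewise, with 14.4 ± 8.09 compared with 29.0 ± 1.99 (limma adjusted p = 0.908).

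Bst2 rose over time in WT cells by 3.04 on the log2 scale (limma adjusted p = 0.00121) and in Def6-/- cells by 3.02 (limma adjusted p = 0.00126), and Cmpk2, a mitochondrial nucleotide kinase, by 3.29 and 2.57 (limma adjusted p = 0.000656 and 0.00209). Ifit3, Csf2rb and Il11ra1 have near-identical neighboring copies, among which reads could be split. The count of 9 at day 12 depended on single libraries: it was 13 without replicate 1 or replicate 2 of WT day 0, 4 and 1 without replicate 1 and 2 of Def6-/- day 12, and 8 and 2 without replicate 1 and 2 of WT day 12. It was 16 in a fit of the day 12 libraries alone and 3 with a pseudocount of 0.1. The count of 3 at day 0 was 0 without replicate 1 of Def6-/- day 0 or with the day 0 libraries alone, 7 without replicate 1 of WT day 0 and 6 without replicate 2 of Def6-/- day 0. The 19 over time in WT cells became 12 and 8 without replicate 1 and 2 of WT day 12. The 10 in Def6-/- cells became 17 without replicate 1 or replicate 2 of WT day 0, 6 without replicate 1 of Def6-/- day 0, and 5 and 6 without replicate 1 and 2 of Def6-/- day 12. The summed macrophage markers were 6886 and 3505 in WT and 4317 and 3846 in Def6-/- cells at day 12, which overlapped between the genotypes. The summed osteoblast markers did not overlap, with 81623 and 97621 in WT and 115894 and 100147 in Def6-/- cells at day 12, nor did the adipocyte markers given above. The part of these cell types in the lower level of the ISGF3 targets was not tested.

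**Figure D5:**
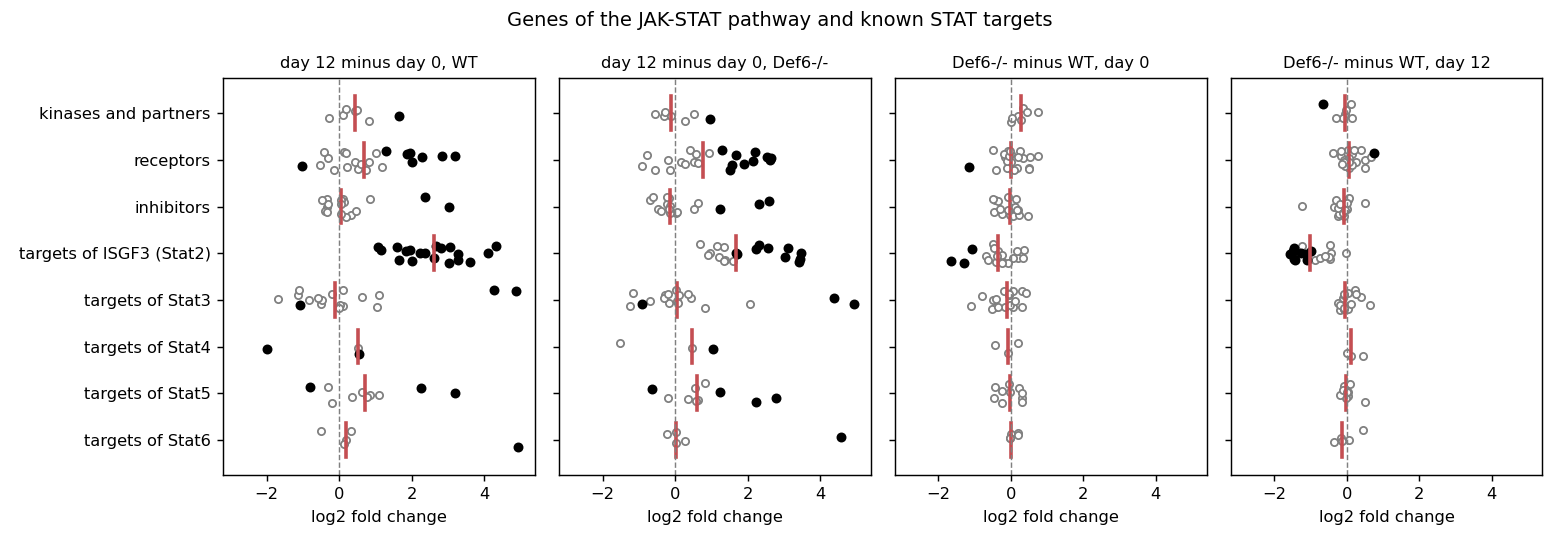
Log2 fold change of every tested gene of each list (points; filled where it passed the rule for that comparison), with the list median as a red bar, in 4 comparisons from the limma fit. The targets of ISGF3 have medians of 2.61 (WT over time), 1.69 (Def6-/- over time), −0.37 (genotypes at day 0) and −1.002 (genotypes at day 12), while the medians of the other lists stay between −0.14 and 0.78.

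Of 18 tested targets of Stat3, 2 were called higher and 1 lower over time in each genotype, a share near that of all genes (12.7% and 5.64% in WT, 12% and 4.79% in Def6-/- cells), and limma called 0 between genotypes on either day. The acute-phase genes Lbp and Hp were the higher ones: Lbp went from 4.11 ± 0.320 to 148 ± 6.79 normalized CPM in WT and from 6.20 ± 3.47 to 142 ± 21.5 in Def6-/- cells, and Hp from 0.571 ± 0.308 to 29.4 ± 7.53 and from 0.188 ± 0.266 to 34.9 ± 0.0764. Fos, an immediate early gene, was the lower one, with 24.7 ± 6.40 and 11.0 ± 0.216 in WT cells (limma adjusted p = 0.0236) and 18.8 ± 0.562 and 9.61 ± 0.919 in Def6-/- cells (limma adjusted p = 0.0487). The call of Fos in WT cells was lost without replicate 1 of WT day 0 (log2 fold change −0.81) or either WT day 12 library. That in Def6-/- cells was kept in 5 of 8 alternatives and, with a library left out, only without replicate 1 or 2 of WT day 0.

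Of 10 tested targets of Stat5, 2 were called higher and 1 lower in WT cells over time (12.7% and 5.64% of all genes), and 3 higher and 1 lower in Def6-/- cells (12% and 4.79%). Igf1, the growth factor that growth hormone induces through Stat5b, went from 107 ± 37.0 to 494 ± 20.9 in WT and from 111 ± 61.0 to 485 ± 37.4 in Def6-/- cells (limma adjusted p = 0.00354 and 0.00365). Igfals, which carries IGF in serum, was at 0 reads in both WT libraries at day 0 and at 8.07 ± 0.758 at day 12, and went from 0.188 ± 0.266 to 7.14 ± 1.97 in Def6-/- cells. Cdkn1a, the cell cycle inhibitor p21, fell from 937 ± 147 to 535 ± 8.76 and from 788 ± 50.6 to 504 ± 17.1 (limma adjusted p = 0.0154 and 0.0388). With a library left out, its call in Def6-/- cells was kept only without replicate 1 or 2 of WT day 0, and that in WT cells was lost without either WT day 12 library. Between genotypes 0 of the 10 were called on either day.

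Of 14 targets of Stat6, 5 were tested, and 1 was called higher over time in each genotype (12.7% of all genes in WT and 12% in Def6-/- cells). This gene was Mrc1, the mannose receptor of macrophages, in WT from 9.64 ± 1.36 to 343 ± 161 and in Def6-/- cells from 11.5 ± 3.998 to 289 ± 7.71. Mrc1 is also among the 15 macrophage markers given above. Of 8 targets of Stat4, 3 were tested. Over time 1 was called higher and 1 lower in WT cells (12.7% and 5.64% of all genes). In Def6-/- cells 1 was called higher and 0 lower (12% and 4.79%). The protease Furin was higher over time in WT cells (log2 fold change 0.53, limma adjusted p = 0.0493), and the stress-response gene Gadd45g was lower there (−1.99, limma adjusted p = 0.0179). The homeobox gene Hlx was higher in Def6-/- cells (1.04, limma adjusted p = 0.0452). The call of Furin was lost in 8 of 8 alternatives. That of Hlx was kept in 5 of 8 and, with a library left out, only without replicate 1 or 2 of WT day 0. Gadd45g was at −1.11 without replicate 1 of WT day 0, still called, and its call was lost without either WT day 12 library (log2 fold changes −2.87 to −1.11 over all libraries left out). None of the tested targets of Stat4 or Stat6 was called between genotypes on either day.

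For the other STAT genes, the 3 most similar profiles over the 8 libraries were Ptprg, Zfp865 and Arid1a for Stat3 (r = 0.995, 0.988 and 0.986), Rnf167, Anpep and Slc2a8 for Stat5a (r = 0.989, 0.981 and 0.981), Foxc1, Tecr and Ifi44 for Stat5b (r = 0.943, 0.925 and 0.914), and Tbc1d13, Arfip2 and Rbm43 for Stat6 (r = 0.978, 0.977 and 0.959). Between the STAT genes, Stat2 and Stat5a were most alike (r = 0.868) and Stat3 and Stat6 least (r = −0.475). As before, these values describe 8 libraries that share groups and scaling.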

How the data were processed

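RNA of 8 libraries was measured (4 groups, 2 each). According to the submitters' processing notes and the methods, the authors selected poly-A RNA, used fastp, HISAT2 (genome mm10), HTSeq and edgeR, and the deposited values are CPM; versions, annotation and strand setting are not given in the sources used here. The deposited CPM are relative to all reads, of which 28.8% to 35.3% fell on genes. Of 114821 positive values, 99.959% were whole reads within 0.05 reads, and none of the 47 others belonged to a gene described here.

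CPM were rescaled to reads on genes with TMM factors and tested as log2(value + 1) with limma 3.58.1 (lmFit, eBayes with trend; two-sided; Benjamini-Hochberg over the 12348 genes whose mean deposited CPM reached 1 in any group; R 4.3.3), all 8 libraries as 4 group means. Fold changes are on the log2(value + 1) scale, which understates changes of low genes. Calls over time need an adjusted p under 0.05, calls between genotypes and of the interaction the study's unadjusted p under 0.05 and over 1.2-fold. The limma fit between genotypes at day 12 was tested on simulated counts whose spread followed the same rule in all groups, unlike the libraries here. Alternatives were edgeR 4.0.16 and DESeq2 1.42.0 on recovered reads, other scalings, a pseudocount of 0.1, no filter, fewer libraries and a replicate block. Intervals cover the spread between libraries, and floors counting error only. The library kit does not mark strand, so reads where genes overlap cannot be told apart. Positions are from GENCODE M21, exon lengths were found for 96.4% of tested genes, and promoters are from RefSeq GRCm38.p6. Protein sequences were not used here. Named genes are the STAT genes, the kinases and partners, up to 3 called genes of each list with the smallest p per comparison and direction, and the 3 most similar profiles, unless stated. Members and lists were chosen with earlier results of these data known.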

Additional observations from a re-analysis of the deposited data

Results flagged for a closer look

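In 2 of the 92 tested genes of the pathway lists the change over time differed between the genotypes by the unadjusted test of the interaction. Of all genes tested, 1.13% passed that rule. Neither of the 2 passed after adjustment (limma adjusted p = 1 for both). Il21r, the receptor of IL-21, held 2 and 5 reads in WT and 0 and 0 in Def6-/- libraries at day 0, and 10 and 7 in WT and 17 and 9 in Def6-/- libraries at day 12. Its interaction was 1.83 on the log2 scale (interval 0.51 to 3.14), a value that depends on the pseudocount since 1 group was at 0. Cish, a feedback inhibitor of Stat5, held 9.92 ± 1.04 normalized CPM in WT and 7.13 ± 0.510 in Def6-/- cells at day 0, and 7.91 ± 1.85 and 11.5 ± 0.570 at day 12 (SD, n = 2). Its interaction was 0.93 (interval 0.02 to 1.83), and the call was kept in 3 of 7 alternatives and 2 of 8 analyses with a library left out (0.83 and no longer called without replicate 1 of WT day 0). Cish is on the list of inhibitors and on that of Stat5 targets.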

How the results depend on the processing

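Over the 8 alternatives (7 for the interaction), 188 values of single STAT genes kept their direction and their side of the threshold, 3 turned in sign, 2 gained a call and 2 lost one. At day 12, a fit of the groups compared alone called 1 STAT gene between genotypes (0 otherwise) and 20 pathway genes (11 otherwise), and a pseudocount of 0.1 called 4 pathway genes. At day 0 the fit of the groups compared alone called 1 pathway gene (4 otherwise). Over time in Def6-/- cells it called 2 STAT genes and 50 pathway genes (1 and 31 otherwise), while deposited CPM and no filter called 0 STAT genes. Pathway genes called for the interaction were 1 with DESeq2, deposited CPM or the replicate block (2 otherwise). The cause of these shifts was not tested.

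Leaving out 1 library in turn, a lone library being assumed to vary like the others, gave 0 to 1 STAT genes between genotypes at day 12, 0 to 2 at day 0, 1 to 2 over time in WT cells, 0 to 2 in Def6-/- cells and 0 to 2 for the interaction. Pathway genes ranged from 2 to 16, 0 to 26, 21 to 52, 15 to 51 and 1 to 25 in the same order.

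Signs turned only for values that passed no rule with all 8 libraries. With deposited CPM the genotype difference became 0.0123 for Stat5a and 0.025 for Stat6 at day 12 and 0.10 for Stat6 at day 0. With 1 library left out, differences that turned ranged, between genotypes at day 0, from −0.21 to 0.60 (Stat2), −0.040 to 0.51 (Stat3), −0.52 to 0.13 (Stat5a), −0.34 to 0.023 (Stat5b), −0.13 to 0.051 (Stat6) and −0.26 to 0.35 (Irf9), and at day 12 from −0.18 to 0.066 (Stat5a). Over time they ranged from −0.31 to 0.24 (Stat3, WT) and −0.044 to 0.31 (Stat5b, Def6-/-). For the interaction they ranged from −0.40 to 0.15 (Stat3), −0.18 to 0.47 (Stat5a), −0.33 to 0.025 (Stat5b) and −0.098 to 0.086 (Stat6).

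Groups share replicate numbers, but no source ties equal numbers to a shared litter, batch or day, and the correlation of replicate differences between groups ranged from 0.00232 to 0.327. A replicate block changed no call of a STAT gene (Stat2 between genotypes at day 12: −0.61, limma adjusted p = 1), and the count of called STAT genes with the replicate block was 0 between genotypes on both days, 1 over time in each genotype and 0 for the interaction. Stat5a rested on 23 to 82 reads a library and Stat2 on 46 to 322, which limits the precision of both.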
